A study of Mus musculus with 25 samples.

Results

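Osr1 and Osr2 are the odd-skipped related genes of the mouse, a pair of zinc finger transcription factors, and they are 2 of the 37406 genes in the table of expression values. Each was found by its gene symbol, 1 row per gene. Osr1 (gene ID 23967) lies on chromosome 12 from 9581248 to 9588306 and Osr2 (gene ID 107587) on chromosome 15 from 35225867 to 35233060, positions that the table gives for the whole gene and that the submitters' processing notes place in build mm9. The odd-skipped proteins bind DNA through their zinc fingers and act in the patterning of embryonic mesenchyme. Osr2 is needed for the growth and elevation of the palatal shelves, where it is known for graded expression across the shelf and works among hedgehog, Wnt, BMP and FGF signals. Osr1 is best known for its part in the early heart, kidney and urogenital tract and is also expressed in the palate and limb.

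The libraries came from palates of wild type CD1 mouse embryos at the embryonic stage E14.5, soon after the shelves meet at the midline, and no group received a treatment or carried a labelled allele. Laser capture microdissection was used to cut 8 compartments from sections. They were named medial, lateral, oral and nasal, at an anterior and a posterior level, and each gave 3 libraries except anterior nasal, which gave 4. Medial and lateral divide the shelf from the midline outward, and oral and nasal divide it from the mouth to the nose. The values are RPKM, reads scaled to the length of the transcript and the depth of the library, so that levels of both genes are per length and may be set side by side.

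The RPKM values imply totals of 1.64 to 6.56 M reads over the 25 libraries, far below the average sequencing depth that the study states. The study removed duplicate reads and reads with more than 1 alignment. Correlations between replicates of a compartment were 0.612 to 0.932 across genes. All 8 palatal mesenchyme markers (among them Prrx1, Twist1 and Pdgfra) were above 0 in each compartment, with summed levels of 673 to 1263 RPKM. Skeletal muscle markers summed to 2.98 to 162 RPKM, with Myod1 and Myf5 at 0 in all medial libraries, and macrophage markers to 48.8 to 177 RPKM. In the column headers of the study's own tables, the alignment names place the libraries in 8 sequencing runs, with all 3 anterior medial libraries in 1 run. The alignment names of 6 libraries also carry the name of another mouse line as wild type, although the labels give CD1 for all. These are posterior medial and posterior lateral replicate 1 (ERK2_WT), and anterior nasal replicate 4, anterior oral replicate 3, posterior nasal replicate 1 and posterior oral replicate 1 (Tgfbr2_WT). They make up all of runs 1, 2 and 3, and those named Tgfbr2_WT are the whole of run 3. Their implied totals were the highest, at 4.07 to 6.56 M reads, against at most 3.86 M in any other library. Line, run and depth thus cannot be told apart for these libraries. Comparisons of the members that use these libraries are given with and without them.

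Both genes were well expressed. Over the 25 libraries Osr1 averaged 50.9 RPKM, rank 1059 of the 11913 genes that reached 5 RPKM in 3 or more libraries, and Osr2 averaged 59.4 RPKM, rank 785. The Osr1 values rested on 42.0 to 1275 reads per library and those of Osr2 on 57.6 to 1397 reads. Counting error alone would give a coefficient of variation of 2.80% to 15.4% for Osr1 and of 2.68% to 13.2% for Osr2. The spread between replicates ran from 3.79% to 64.6% for Osr1 and from 6.94% to 73.7% for Osr2, the lowest in anterior medial for both, so in most compartments the spread between replicates was wider than counting error. In anterior medial it was not for Osr1, with a spread of 3.79% beside a mean counting error of 8.16%.

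Osr1 was highest in the anterior lateral compartment, at 98.4, 113 and 114 RPKM in the 3 libraries, and next in anterior oral, at 78.7, 98.2 and 96.7 RPKM. In anterior nasal the 4 libraries stood at 85.6, 62.5, 59.1 and 40.9 RPKM. In anterior medial the libraries lay close together at 23.9, 22.6 and 22.2 RPKM. Within the anterior palate, therefore, the medial libraries were the low ones, and no medial library reached the level of any library of the other 3 compartments. The share of all genes with such a gap was not worked out.

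In the posterior palate Osr1 was again low medially, at 26.9, 17.8 and 5.41 RPKM, where replicate 3 held only 42.0 reads of the gene. Posterior lateral stood at 53.2, 48.1 and 29.6 RPKM and posterior oral at 44.0, 55.3 and 41.5 RPKM. Posterior nasal was lowest, at 9.43, 15.6 and 10.2 RPKM. The lateral and oral libraries thus lay above all medial and nasal libraries of the posterior palate, a split whose share over all genes was not worked out either.

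The order of the compartment means of Osr1 was anterior lateral (109 ± 8.86, SD, n = 3), anterior oral (91.2 ± 10.8, n = 3), anterior nasal (62.0 ± 18.4, n = 4), posterior oral (46.9 ± 7.34, n = 3), posterior lateral (43.6 ± 12.4, n = 3), anterior medial (22.9 ± 0.869, n = 3), posterior medial (16.7 ± 10.8, n = 3) and posterior nasal (11.8 ± 3.37, n = 3). Neighbours in this order overlapped except anterior lateral and anterior oral, which were apart by only 0.205 RPKM, and posterior lateral and anterior medial, apart by 5.69 RPKM. Osr1 varied over the 8 compartments beyond the spread between replicates (limma moderated F = 18.0, adjusted p = 6.95e-05, rank 50 of 11913 genes), a test that called 4.42% of all genes. Without the 6 libraries named for another line F was 20.0 (adjusted p = 0.00111).

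**Figure D1:**
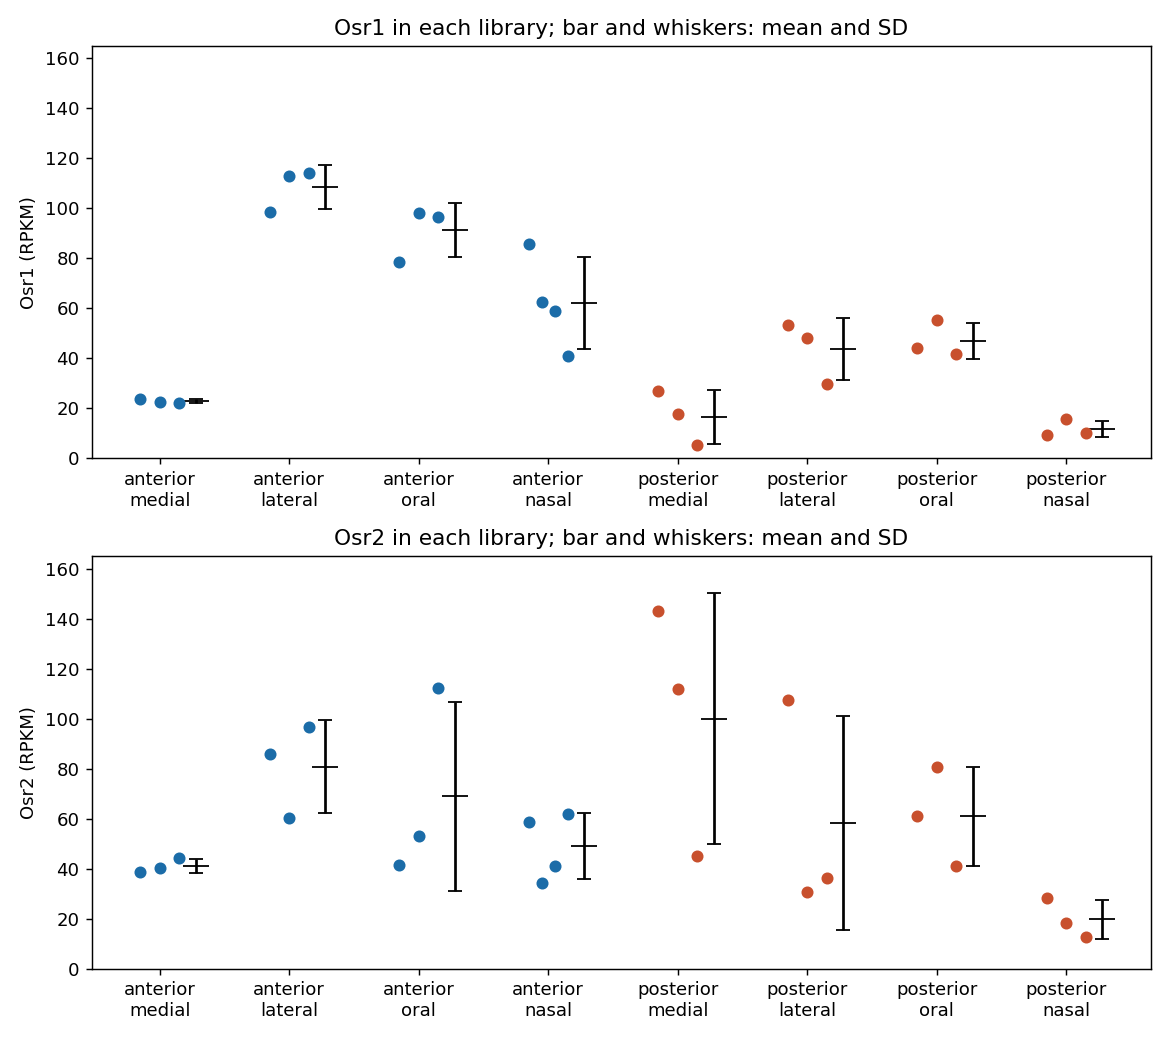
Level in RPKM (vertical axis) of Osr1 (upper panel) and Osr2 (lower panel) in each of 25 libraries, by compartment, with anterior libraries in blue and posterior ones in orange. Points are libraries, and the bar with whiskers is the mean with its SD; Osr1 is low in both medial compartments and in posterior nasal, while Osr2 is low in posterior nasal and spreads widely in posterior medial and posterior lateral.

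Osr2 had another order. It was highest on average in posterior medial, with libraries at 143, 112 and 44.9 RPKM, where Osr1 was near its lowest. Anterior lateral stood at 85.8, 60.1 and 96.5 RPKM, anterior oral at 41.6, 53.1 and 112 RPKM, and posterior oral at 60.9, 80.8 and 40.9 RPKM. Single libraries moved these means, with replicate 3 far below the other two libraries in posterior medial and far above them in anterior oral.

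Posterior lateral held Osr2 at 108, 30.8 and 36.2 RPKM, so replicate 1 alone was high. Anterior nasal stood at 58.6, 34.4, 41.1 and 61.7 RPKM, and anterior medial, again with little spread, at 38.6, 40.1 and 44.1 RPKM. Posterior nasal was lowest, as for Osr1, at 28.1, 18.4 and 12.8 RPKM, and none of its libraries reached the level of a library of any other compartment. How many of all genes had such a gap was not worked out.

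The means of Osr2 fell in the order posterior medial (99.97 ± 50.2, SD, n = 3), anterior lateral (80.8 ± 18.7, n = 3), anterior oral (68.9 ± 37.9, n = 3), posterior oral (60.9 ± 19.9, n = 3), posterior lateral (58.2 ± 42.9, n = 3), anterior nasal (49.0 ± 13.3, n = 4), anterior medial (40.9 ± 2.84, n = 3) and posterior nasal (19.8 ± 7.74, n = 3). Of these neighbours, only anterior medial and posterior nasal did not overlap, with a gap of 10.5 RPKM. Over the 8 compartments the variation of Osr2 did not pass the test (F = 4.10, unadjusted p = 0.00629, adjusted p = 0.105, limma). Without the 6 libraries named for another line it did (F = 6.52, adjusted p = 0.0496), as it did without posterior lateral replicate 1 (adjusted p = 0.0311) and without posterior medial replicate 3 (adjusted p = 0.0291). The variation stayed uncalled in 23 of the 25 fits with a single library left out, with an adjusted p of up to 0.446 (limma). In 5 of those 6 libraries Osr2 was the highest of its compartment, which held in 5 or more of the 6 for 9.89% of 11913 genes. Osr1 was highest in 2 of the 6 and lowest in 2. Mouse line, run and depth cannot be told apart for these libraries, and their part in the spread of Osr2 was not tested.

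The study asked which genes differ between medial and lateral and between oral and nasal compartments along the palate, and between its anterior and posterior ends. Both genes are named in the study's own account of these libraries, so the comparisons that follow are not independent evidence of direction. Differences were tested with limma on log2(RPKM + 0.1), with adjusted p-values over all genes tested in the comparison. The pseudocount of 0.1 is small beside the levels of both genes. In these dissected pieces, fewer cells that express a gene and less RNA of it per cell cannot be told apart.

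In the anterior palate Osr1 was 4.72-fold higher in the lateral than in the medial compartment and Osr2 1.94-fold higher, and for both the groups did not overlap. The log2 difference of Osr1 was 2.24 ± 0.115 (SE, 95% interval 1.97 to 2.51) with an adjusted p of 2.42e-04, rank 5 by p of 10427 genes. That of Osr2 was 0.96 ± 0.186 (0.52 to 1.39) with an adjusted p of 0.0450, rank 253. In this comparison 2.51% of genes were called, 1.43% as higher and 1.08% as lower in the lateral compartment, and 21.3% had groups that did not overlap. The call of Osr2 was the less firm: leaving out single libraries moved its adjusted p between 0.0300 and 0.169, and only without anterior lateral replicate 2 (60.1 RPKM) did it stay under 0.05. For Osr1 the same range was 0.00142 to 0.00366.

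Anterior lateral and anterior medial libraries shared no sequencing run, and compartment and run cannot be told apart here. With the run as a term in 1 fit of all 25 libraries, which reaches this difference by way of other compartments, the values were 2.75 for Osr1 and 1.91 for Osr2 (both adjusted p = 1.00), and no gene was called. Markers of other cell types also moved with this comparison, and their part in it was not tested. The summed level of 5 cartilage markers was 67.6 to 109 RPKM in medial against 20.7 to 21.6 RPKM in lateral libraries. Endothelial markers (8 genes) summed to 145 to 168 against 199 to 229 RPKM, and nerve and Schwann cell markers (7 genes) to 10.5 to 18.9 against 20.4 to 23.3 RPKM.

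In the posterior palate the lateral-medial differences of the genes had opposite signs, and neither passed the test. The lateral mean of Osr1 was 3.06-fold the medial one on the log2 scale (1.61 ± 0.630, 95% interval 0.09 to 3.14, unadjusted p = 0.0410, adjusted p = 0.957, limma), with groups that did not overlap, as held for 6.62% of the genes tested. Osr2 had a log2 difference of -0.86 ± 0.650 (-2.43 to 0.71, adjusted p = 0.957), with posterior lateral replicate 1 inside the range of the medial libraries and the other two lateral libraries below it. No gene was called in this comparison (0% of 10324), while 159 genes (1.54%) had an unadjusted p under 0.05. Without the 2 libraries named for another line the values were 1.93 for Osr1 and -1.08 for Osr2 (both adjusted p = 0.744). These compartments, too, shared no run. The 10 epithelial markers summed to 63.6 to 189 RPKM in posterior medial and 28.03 to 48.5 RPKM in posterior lateral, and the nerve and Schwann cell markers to 16.9 to 39.5 and 10.99 to 15.9 RPKM. Their part was not tested.

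Whether the lateral-medial difference itself changed from the anterior to the posterior palate was tested as an interaction. For Osr1 the change was -0.62 (95% interval -2.14 to 0.90, adjusted p = 0.964). For Osr2 it was -1.82 (-3.43 to -0.20, unadjusted p = 0.0314, adjusted p = 0.964), which did not hold over all genes, where 0.00902% were called and 3.36% had an unadjusted p under 0.05. The interval of Osr2 spans changes from about none to a large one, so these libraries leave the size of the change poorly set. Without the libraries named for another line the changes were -0.31 and -2.04.

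In the posterior palate the oral compartment held more Osr1 than the nasal one, and the values of Osr2 leaned the same way. In posterior oral Osr1 was 4.04-fold higher than in posterior nasal (log2 difference 2.01 ± 0.258, 95% interval 1.42 to 2.604, adjusted p = 0.0142, rank 31 of 10586 genes). The mean of Osr2 was 3.11-fold that of the nasal compartment on the log2 scale (1.64 ± 0.353, 0.83 to 2.45, unadjusted p = 0.00154), with an adjusted p of 0.0881 that did not pass. For both genes each oral library lay above each nasal library, and 11.8% of the genes tested had groups that did not overlap in 1 direction or the other. The test called 1.25% of genes, 0.586% as higher and 0.661% as lower in the oral compartment.

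The same direction was seen where oral and nasal libraries shared a run. In run 3, with 1 library of each, both named Tgfbr2_WT, Osr1 was higher orally by 2.21 and Osr2 by 1.11 on the log2 scale. In run 7, with 2 oral libraries and 1 nasal library, the differences were 1.61 and 1.64. With the run as a term in the fit of 25 libraries Osr1 kept a difference of 1.87, with an adjusted p of 0.152. Without replicate 1 of both compartments, each named for another line, Osr1 differed by 1.91 (adjusted p = 0.189) and Osr2 by 1.90 (adjusted p = 0.2503), and no gene was called. The call of Osr1 was also lost without posterior nasal replicate 1 (adjusted p = 0.0569) or replicate 3 (adjusted p = 0.0970).

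Bone, endothelial and red blood cell markers moved with this comparison. The summed level of 6 osteoblast markers was 378 to 547 RPKM in posterior nasal and 83.5 to 107 RPKM in posterior oral, and that of the endothelial markers was 77.4 to 119 against 182 to 239 RPKM. The red blood cell markers summed to 421 to 755 RPKM in posterior nasal and 836 to 1180 RPKM in posterior oral, and the sums of the other marker lists overlapped. Bglap, which marks mature osteoblasts, was at or near 0, with no library of these compartments above 0.933 RPKM. The part of these cell types in the low nasal levels of Osr1 and Osr2 was not tested.

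In the anterior palate the oral-nasal differences were small beside their spread. Osr1 had a log2 difference of 0.60 ± 0.291 (95% interval -0.07 to 1.26, unadjusted p = 0.0731) and Osr2 of 0.40 ± 0.391 (-0.50 to 1.30, unadjusted p = 0.337), and for both the adjusted p was 1.00 and the groups overlapped. For Osr2 the sign rested on anterior oral replicate 3 (112 RPKM), without which the difference was -0.02. Within the 3 shared runs Osr1 differed by 1.24, 0.11 and 0.73 and Osr2 by 0.86, -0.11 and 0.37. The first of these, run 3, held only libraries named Tgfbr2_WT. Without the 2 libraries named for another line the values were 0.37 and 0.11. The endothelial markers summed to 159 to 261 RPKM in anterior oral and 98.7 to 148 RPKM in anterior nasal, the cartilage markers to 19.7 to 48.8 against 57.4 to 101 RPKM, and the osteoblast markers to 46.9 to 75.0 against 90.6 to 120 RPKM. Their part was not tested. Of 10684 genes 0% were called, 318 (2.98%) had an unadjusted p under 0.05, and 3.67% had groups that did not overlap.

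The change of the oral-nasal difference from anterior to posterior was 1.42 for Osr1 (95% interval 0.56 to 2.27, unadjusted p = 0.00348, adjusted p = 0.504) and 1.24 for Osr2 (-0.01 to 2.48, unadjusted p = 0.0516, adjusted p = 1.00). Neither passed over all genes, where 0.035% were called and 3.38% had an unadjusted p under 0.05. A larger oral-nasal difference in the posterior than in the anterior palate is thus not shown for either gene by this test. Without the libraries named for another line the changes were 1.55 and 1.79 (both adjusted p = 0.722, limma).

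**Figure D2:**
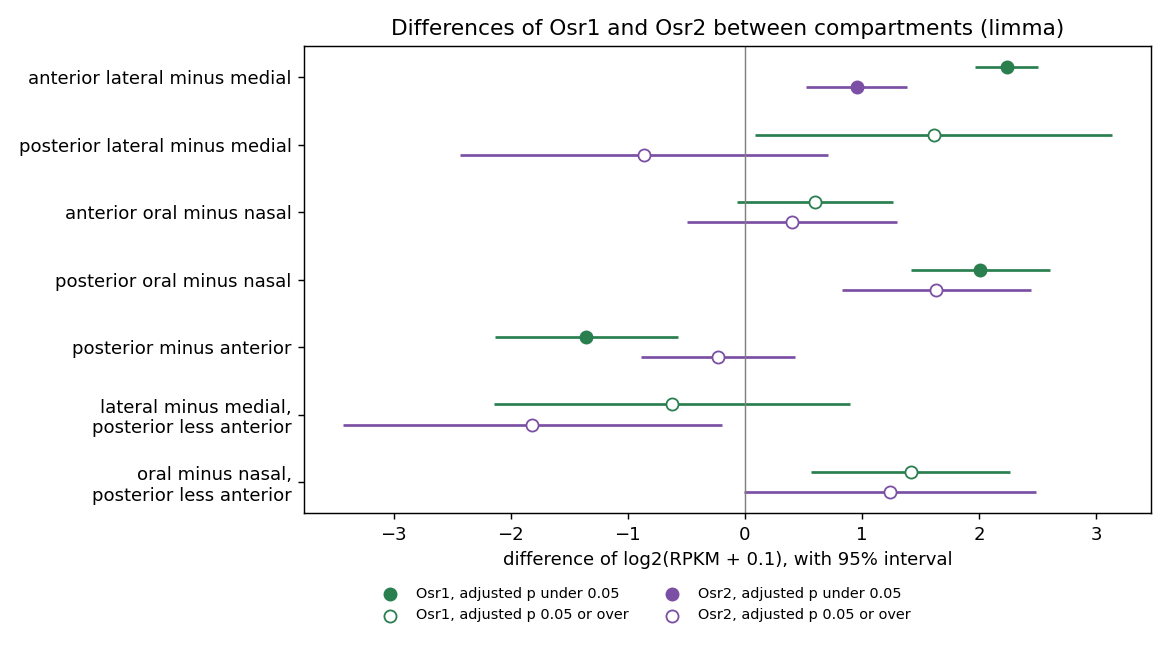
Difference of log2(RPKM + 0.1) of Osr1 (green) and Osr2 (purple) in 7 comparisons (horizontal axis), with 95% intervals from limma as lines. Filled points have an adjusted p under 0.05 and open points do not; the 3 filled points of Osr1 are at 2.24, 2.01 and -1.35 and the filled point of Osr2 at 0.96.

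Along the anterior-posterior axis Osr1 was lower in the posterior palate and Osr2 showed no such difference. Osr1 averaged 70.5 ± 34.3 RPKM (SD, n = 13) in anterior and 29.8 ± 18.1 RPKM (n = 12) in posterior libraries, with a lowest, median and highest anterior library at 22.2, 78.7 and 114 RPKM and posterior ones at 5.41, 28.2 and 55.3 RPKM. Its log2 difference was -1.35 ± 0.382 (95% interval -2.14 to -0.57, adjusted p = 0.0465, limma), rank 275 of 8608 genes, of which 3.32% were called and 1.66% as lower. Osr2 averaged 59.1 ± 24.5 RPKM in anterior and 59.7 ± 41.9 RPKM in posterior libraries, and its log2 difference was -0.23 ± 0.320 (-0.89 to 0.43, adjusted p = 0.799). The ranges overlapped for both genes, as for all but 0.267% of the genes tested, and the interval of Osr2 reaches down to -0.89.

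The call of Osr1 lay close to the threshold. It was lost on leaving out any of 16 of the 25 libraries (adjusted p from 0.0276 to 0.0900 over all 25) and without the 6 libraries named for another line (-1.46, adjusted p = 0.0947). It held with a larger margin once the 8 compartments were terms in 1 fit of all libraries (-1.36, adjusted p = 1.08e-04) and with the run added (-1.51, adjusted p = 0.0178).

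Markers of other cell types moved with the axis in each region, and their part in the difference was not tested. Nasally, where the means of Osr1 were furthest apart, the osteoblast markers summed to 378 to 547 RPKM in posterior and 90.6 to 120 RPKM in anterior libraries, and the epithelial markers to 41.0 to 73.0 against 74.4 to 154 RPKM. Medially only the red blood cell markers did not overlap, at 871 to 1081 against 454 to 860 RPKM. Laterally the cartilage markers stood at 46.6 to 77.2 against 20.7 to 21.6 RPKM, the nerve and Schwann cell markers at 10.99 to 15.9 against 20.4 to 23.3 RPKM and the palatal mesenchyme markers at 904 to 998 against 844 to 883 RPKM. Orally 5 lists did not overlap: red blood cells (836 to 1180 against 476 to 602 RPKM), macrophage (113 to 151 against 65.3 to 98.6), osteoblast (83.5 to 107 against 46.9 to 75.0) and cartilage (65.5 to 109 against 19.7 to 48.8) were higher in posterior libraries, and epithelium (27.3 to 47.7 against 48.1 to 109) was lower.

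By region, the posterior mean of Osr1 was 0.402 of the anterior one laterally, 0.515 orally and 0.190 nasally, each without overlap of the libraries, and 0.729 medially, where the libraries overlapped. Osr2 had ratios of 0.720 laterally and 0.883 orally, with overlap, and 0.404 nasally, without. Medially it went the other way, with a posterior mean 2.44 times the anterior one and the lowest posterior library (44.9 RPKM) just above the highest anterior one (44.1 RPKM). In run 7, which held all 3 anterior and 2 of the posterior medial libraries, the medial log2 difference was -1.21 for Osr1 and 0.79 for Osr2. In the other regions the differences within a shared run were -1.60 laterally, -1.14 orally and -2.10 nasally for Osr1, and -1.53, -0.88 and -1.13 for Osr2. The oral and nasal ones came from run 3, whose libraries were all named Tgfbr2_WT. Without the 6 libraries named for another line the ratios of Osr1 were 0.507 medially, 0.358 laterally, 0.548 orally and 0.187 nasally. Those of Osr2 were 1.92, 0.414, 1.29 and 0.349 in the same order. Each region then held 2 posterior and 3 anterior libraries, or 2 and 2 orally, too few for a lack of overlap to say much. Only the oral libraries of Osr2 overlapped. Single regions were not tested on their own, and the share of all genes without overlap was not worked out for them. In the pairs of compartments compared within the anterior or posterior palate that share ran from 3.67% to 21.3% of the genes tested.

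The ratio of Osr1 to Osr2 within a library does not depend on how the library was scaled. Medially it was low throughout, at 0.619, 0.564 and 0.505 in the anterior and 0.188, 0.159 and 0.121 in the posterior libraries. Laterally it was 1.15, 1.88 and 1.18 in the anterior and 0.494, 1.56 and 0.818 in the posterior libraries. In the posterior medial libraries the RPKM of Osr2 was thus 5.33, 6.28 and 8.30 times that of Osr1, although the level of Osr2 itself varied widely among them. Effects of amplification or removal of duplicates on 1 of the genes would remain in the ratio.

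The ratio was 3.68-fold higher in lateral than in medial libraries (log2 difference 1.88, n = 6 and 6, two-sided exact permutation p = 0.005, the smallest that its 400 arrangements can give, adjusted over the 3 ratio tests 0.0075). The difference was 1.28 in the anterior and 2.47 in the posterior palate, without overlap in either. Lateral and medial libraries shared no sequencing run, so compartment and run cannot be told apart in this ratio either. Between oral and nasal libraries the ratio differed by only 0.29 on the log2 scale (exact permutation p = 0.376 over 700 arrangements). The oral-nasal difference of the ratio was 0.20 in the anterior and 0.38 in the posterior palate, and both pairs of groups overlapped.

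In posterior libraries the ratio was lower than in anterior ones by 1.11 on the log2 scale (n = 12 and 13, permutation p = 3.2e-04 from 100000 permutations within regions, adjusted 9.6e-04). All 4 regions had this direction, with differences of -1.86 medially, -0.67 laterally, -0.86 orally and -1.04 nasally. Only in the medial region did the libraries not overlap. Within shared runs the differences were -2.01 medially, -0.07 laterally, -0.26 orally and -0.97 nasally. Those orally and nasally again came from run 3 alone. Without the 6 libraries named for another line the differences were 2.15 lateral minus medial (adjusted p = 0.025) and -1.09 posterior minus anterior (adjusted p = 0.00177), and 0.14 oral minus nasal (adjusted p = 0.400), by the same permutation tests.

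**Figure D3:**
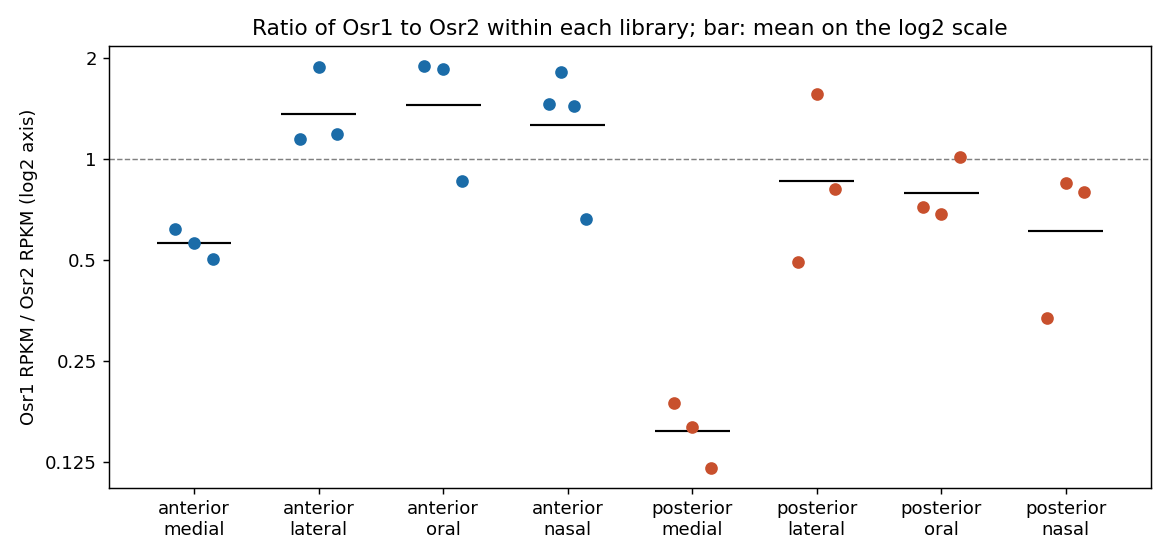
Ratio of Osr1 RPKM to Osr2 RPKM within each library (vertical axis, log2 scale), by compartment, with anterior libraries in blue, posterior ones in orange and the mean on the log2 scale as a bar. The dashed line marks equal RPKM. All 6 medial libraries lie below it, from 0.619 down to 0.121, and the posterior medial ones lie below every other library.

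A list of 35 genes in 36 rows was also read (Sema3a has a pair of rows, and Foxf1 stands in the table as Foxf1a). It was chosen from general knowledge of Osr genes in the palate, with earlier results of these data known. The study itself names Fgf10, Fgf18, Foxf2, Foxd1, Dlx5, Sp7 and Ibsp as differing between posterior oral and nasal. Counts from the list beside the share of all genes are therefore a description. In anterior lateral against medial, 26 rows passed the expression minimum, and 2 were higher and 4 lower laterally, beside 2.51% called over all genes tested. The higher ones were Msx1, a homeobox factor of the anterior palate (log2 difference 1.90 ± 0.334, adjusted p = 0.0310, limma), and Fgf18, an FGF ligand (1.12 ± 0.167, adjusted p = 0.0170). The lower ones were Runx2, the master factor of bone formation (-1.54), the receptor Fgfr2 (-0.61) and both rows of Sema3a, a guidance signal (-1.37 and -0.97). The median over the 26 rows was 0.02, beside -0.03 over all genes tested. None of the 6 hedgehog pathway genes tested passed here.

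In posterior oral against nasal, 31 rows were tested, and 4 were higher and 5 lower orally, beside 1.25% called over all genes tested. Without the libraries named for another line no gene was called. Higher were the ligands Fgf10 (2.04 ± 0.273, adjusted p = 0.0155, limma) and Fgf18 (2.39 ± 0.357, adjusted p = 0.0222) and the forkhead factors Foxf2 (1.87) and Foxd1 (1.86), in the same direction as Osr1. Lower were Fgfr2 (-1.36) and all 4 bone-forming genes, Runx2 (-1.18), Sp7, a factor of osteoblast commitment (-3.08), Dlx5, a homeobox factor of bone (-2.35), and Ibsp, a bone matrix protein (-6.22). The median of the 31 rows was 0.16, beside -0.01 over all genes. None of the 6 hedgehog pathway genes and 4 BMP and Wnt genes passed.

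In posterior against anterior, 30 rows were tested, and 3 were higher and 2 lower posteriorly, beside 3.32% called over all genes tested. These 5 were also called without the libraries named for another line. Higher were Barx1 (4.72 ± 0.476) and Tbx22 (2.94 ± 0.307), transcription factors of the posterior palate, and Sema3d (1.06). Lower, as Osr1 was, were Msx1 (-4.45) and the Wnt inhibitor Dkk2 (-1.42). The median of the list was 0.07, beside 0.03 over all genes. In posterior lateral against medial and in anterior oral against nasal, none of the 28 and 31 rows tested passed, and none of 33 and 32 did in the interactions.

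The genes most like each member were taken by Pearson's correlation of log2(RPKM + 0.1) over the 25 libraries, among 11912 other genes. The libraries share runs, depth and compartments, so the values are a description. For Osr1 these were the signalling ligand Wnt2 (0.862), the G protein-coupled receptor Prokr1 (0.828), the sarcoglycan Sgcz (0.810), the secreted protein Ccdc80 (0.803) and the natriuretic peptide receptor Npr3 (0.800). Wnt2 averaged 8.69 RPKM in anterior lateral, 9.24 in anterior oral and 8.09 in anterior nasal against 2.37 in anterior medial. In the posterior palate it averaged 4.33 RPKM orally and 1.59 laterally, against 0.303 medially and 0.315 nasally. Like Osr1 it was lowest in posterior medial and posterior nasal, while its posterior lateral mean lay below its anterior medial one, the reverse of Osr1.

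For Osr2 they were 1110012J17Rik (0.860), the exchange factor Tiam1 (0.849), the scaffold protein Magi1 (0.826), Sox10, a factor of neural crest and Schwann cells (0.823), and the laminin Lama2 (0.818). Sox10 stood at 1.33 to 29.6 RPKM in posterior medial and at 0.285 to 2.56 RPKM in posterior nasal libraries. The 7 nerve and Schwann cell markers, of which Sox10 is one, summed to 16.9 to 39.5 RPKM in posterior medial and 15.5 to 22.8 RPKM in posterior nasal, and their part in the level of Osr2 was not tested. From the list of 36 rows, Foxf2 was nearest to Osr2 (0.683) and Fgf10 to Osr1 (0.695), and Fgfr2 was among the genes least like Osr2 (-0.828, rank 11909 of 11912). Osr1 and Osr2 had a correlation of 0.47 with each other over the 25 libraries and of 0.489 over the 8 compartment means. Over the 19 libraries without those named for another line, the correlations with Osr1 were 0.865 for Wnt2, 0.834 for Prokr1, 0.803 for Sgcz, 0.852 for Ccdc80, 0.835 for Npr3 and 0.478 for Osr2. Those with Osr2 were 0.885 for 1110012J17Rik, 0.845 for Tiam1, 0.812 for Magi1, 0.788 for Sox10 (rank 24), 0.876 for Lama2 and 0.831 for Foxf2 (rank 8).

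**Figure D4:**
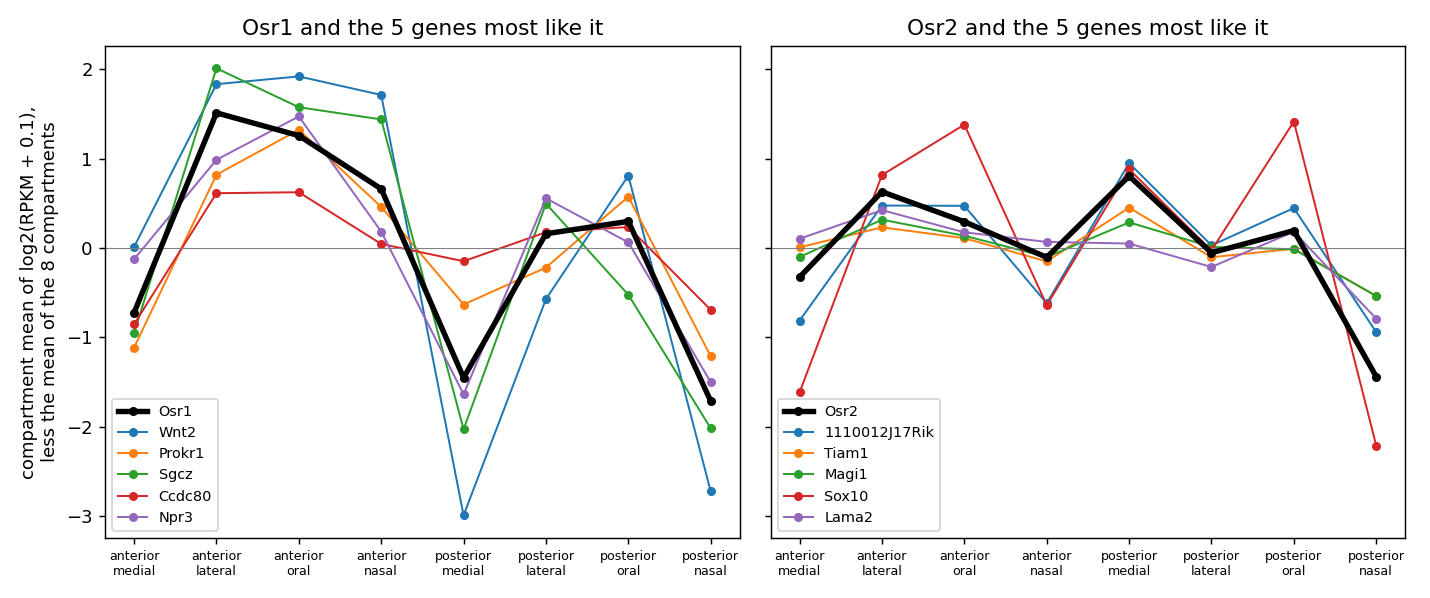
Mean of log2(RPKM + 0.1) per compartment, less the mean of the 8 compartments (vertical axis), for Osr1 (left, black) and Osr2 (right, black) with the 5 genes of highest correlation to each. Osr1 and Wnt2 have their lowest values in posterior medial and posterior nasal. Osr2 and Sox10 are both lowest in posterior nasal. Osr2 is highest in posterior medial (0.81), while Sox10 is higher in posterior oral (1.42) and anterior oral (1.38) than in posterior medial (0.88).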

How the data were processed

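RNA from 25 laser capture samples was amplified (NuGEN Ovation), tagmented and sequenced as single reads of 50 bases. RPKM values of 37406 genes were deposited by the authors, who used GeneSpring after reads with more than 1 alignment and duplicate reads were removed; the submitters' processing notes name TopHat and mm9. Amplification and removal of duplicates can alter the levels of abundant transcripts. Samples were grouped by their labels, and the study calls replicates biological. Depth was recovered from the spacing of low values, and reads of a gene were counted in steps of 1/50 of a read, which gave whole lengths of 2011 bases for Osr1 and 1792 for Osr2.

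Compartments were compared by a moderated test as in the study (limma 3.58.1, R 4.3.3, values as log2(RPKM + 0.1)), over genes that reached 5 RPKM in 3 or more compared libraries (10 RPKM in 6 for posterior against anterior), with Benjamini-Hochberg adjustment over all genes. The study's pooled count test for posterior against anterior needs counts and was replaced by limma. Ratios of Osr1 to Osr2 were tested by permutation in Python 3.11.15. The limma comparisons were tried on simulated data first. Genes named were both members, the 35 listed genes and the 5 genes most correlated with each member. Members and lists were chosen with earlier results of these data known. Alternatives were pseudocounts of 1 and 0.01, no minimum, median centring, a replicate block, 1 fit of all 25 libraries without and with the sequencing run, and libraries left out. Same-numbered anterior oral and nasal libraries deviated together weakly (correlations 0.24, 0.22 and 0.12), and only those numbered 1 shared a run. The main fit was unpaired there as elsewhere, with the replicate block as an alternative. In no other comparison of 2 compartments did every pair exceed 0.1.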

Additional observations from a re-analysis of the deposited data

How the results depend on the processing

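Of 135 values of the members recomputed under another setting, with single libraries left out counted apart, 123 kept their direction and side of the threshold, 11 lost their call, 1 gained one and 0 turned direction. Most of the 135 belong to results that had no call in the main fit and so none to lose. All 11 losses fell on the called differences between compartments or along the axis, and none on the F of Osr1 or the called ratios. Osr2 in anterior lateral against medial lost its call without a minimum (0.96, adjusted p = 0.150, limma here and throughout), in 1 fit of all 25 libraries (0.96, adjusted p = 1.00) and with the run (1.91, adjusted p = 1.00), and Osr1 lost it with the run (2.75, adjusted p = 1.00). Osr1 in posterior oral against nasal lost it without a minimum (2.01, adjusted p = 0.102), with the run (1.87, adjusted p = 0.152) and without the 6 libraries named for another line, an alternative chosen after seeing the data (1.91, adjusted p = 0.189). Osr1 in posterior against anterior lost it without a minimum (-1.35, adjusted p = 0.0725) and without those 6 (-1.46, adjusted p = 0.0947), while Osr2 over the 8 compartments gained one without them (F = 6.52, adjusted p = 0.0496). Without a minimum more genes were tested; for the other settings the cause was not tested. With the replicate number as a block, Osr2 in anterior lateral against medial was no longer called (0.96, adjusted p = 0.0707, limma). Nor was Osr1 in posterior against anterior (-1.40, adjusted p = 0.0586, limma). In these comparisons 157 genes were called in place of 262 and 267 in place of 286. In anterior oral against nasal the blocked values were 0.41 for Osr1 and 0.52 for Osr2. The block changed no other call of the members.

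With single libraries left out, Osr2 in anterior lateral against medial ranged from 0.81 to 1.15, Osr2 in anterior oral against nasal from -0.019 (without anterior oral replicate 3, where the sign turned) to 0.70, Osr1 in posterior oral against nasal from 1.87 to 2.23, Osr1 in posterior against anterior from -1.47 to -1.16 and F of Osr2 over the 8 compartments from 2.66 to 5.74. The ratio of Osr1 to Osr2 kept its calls in all such fits, from 1.66 to 2.08 lateral minus medial and from -1.22 to -1.002 posterior minus anterior.

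The number of genes called moved more than the values. Over the other settings and then with single libraries left out it ran from 0 to 299 and 55 to 195 beside 262 in anterior lateral against medial, from 0 to 143 and 12 to 57 beside 132 in posterior oral against nasal, and from 143 to 485 and 231 to 414 beside 286 in posterior against anterior. It ran from 0 to 25 and 0 to 1 beside 0 in posterior lateral against medial, from 0 to 6 and 0 to 6 beside 0 in anterior oral against nasal, and from 0 to 10 and 0 to 9 beside 1 and 0 to 10 and 0 to 5 beside 4 in the lateral-medial and oral-nasal interactions. For Osr1 and Osr2 the spread between replicates exceeded counting error in most compartments, and the source of the added spread was not tested.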
